A study of Mus musculus with 12 samples.

Results

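Amino acid transporters of 7 solute carrier families were measured in mouse kidney cortex. The members were all symbols of the count table named Slc1a, Slc3a, Slc6a, Slc7a, Slc36a, Slc38a or Slc43a with a number, which gave 59 of 24452 symbols. Slc6 had 17 members, Slc7 had 15, Slc38 had 11, Slc1 had 7, Slc36 had 4, Slc43 had 3 and Slc3 had 2. Enough counts for testing were found for 45 of the 59, out of 14618 symbols tested in all. The 12 stranded mRNA libraries came from C57BL/6 mice, all labelled adult and male, with 3 libraries in each group. Control_water and Control_captopril mice were injected with saline and drank water or captopril, an inhibitor of angiotensin-converting enzyme. GN_water and GN_captopril mice had glomerulonephritis (GN), an inflammation of the filtering units, and drank the same 2 fluids. GN was raised by intraperitoneal horse spleen apoferritin at 10 mg per injection, 5 times a week, with lipopolysaccharide as adjuvant at 100 micrograms, 3 times a week, over 6 weeks. Kidneys were taken at week 9. The labels state neither captopril's dose nor its start. Whether each library holds RNA of 1 mouse or of several is also unstated, so p-values measure only the spread between these libraries.

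The kidney tubule recovers nearly all filtered amino acids, mostly in the proximal tubule, through carriers on the apical (urine-facing) and basolateral (blood-facing) membranes. Slc7 light chains do the transport, and many of them reach the membrane only when bound to a heavy chain of the Slc3 family. Slc3a1 (rBAT) pairs with Slc7a9, the cystine and basic amino acid exchanger mutated together with it in cystinuria, and with Slc7a13, an aspartate, glutamate and cystine carrier of the straight proximal tubule. Slc3a2 (4F2hc) pairs with Slc7a5, Slc7a6, Slc7a7, Slc7a8, Slc7a10 and Slc7a11. Slc6a19 and Slc6a18 take up neutral amino acids at the apical membrane, Slc1a1 takes up glutamate and aspartate, and Slc6a6, Slc6a12, Slc6a13 and Slc6a8 carry taurine, betaine, GABA and creatine. In mouse kidney Slc7a13 is known as a transcript with higher levels in males and Slc7a12 as one with higher levels in females.

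The label male went against the sex-linked RNA in 6 of the 12 libraries, and this divided the groups crosswise. Control_captopril and GN_water carried Xist, the RNA of the inactive X chromosome, at 181 to 375 CPM, counts scaled to a common library total, and the 4 Y-linked genes Ddx3y, Kdm5d, Uty and Eif2s3y summed to at most 0.101 CPM. Control_water and GN_captopril carried the Y-linked RNA at 121 to 144 CPM, and Xist was at most 0.182 CPM. Library totals ran from 14.2 to 22.8 M counts, of which the 59 members took 0.559% to 0.647%. Adrenal cortex genes summed to 358 CPM in the third Control_captopril library and to 122 CPM in the third GN_captopril library, against at most 20.0 CPM in the others. Kidney markers were present throughout: 12 proximal tubule genes summed to 11692 CPM or more and 5 podocyte genes to 337 CPM or more in every library.

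The widest differences among the members were those of Slc7a13 and Slc7a12, whose transcripts are different enough to be counted apart, so the starts of both coding sequences are shown. Slc7a13 lies on chromosome 4 (19818727 to 19842213, plus strand, GRCm38) and Slc7a12 on chromosome 3 (14480697 to 14505819, plus strand). The first 150 bases of coding sequence of the GENCODE transcripts are given 5′ to 3′, with the start codon in capitals.
Slc7a13: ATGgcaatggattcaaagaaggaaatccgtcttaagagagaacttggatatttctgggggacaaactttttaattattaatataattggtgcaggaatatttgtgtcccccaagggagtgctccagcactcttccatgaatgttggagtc
Slc7a12: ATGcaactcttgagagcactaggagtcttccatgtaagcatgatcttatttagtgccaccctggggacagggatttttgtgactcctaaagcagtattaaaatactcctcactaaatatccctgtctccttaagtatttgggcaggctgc
The coding sequences are 1437 bases in Slc7a13 and 1398 in Slc7a12. Aligned end to end they were identical at 61.6% of 1384 aligned columns, and the longest identical run was 11 bases. No 50-base stretch of either gene's transcripts occurred in a transcript of the other.

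Compared per kilobase (kb) of exon, which allows levels of different genes to be set side by side, a few carriers dominated. Slc3a1 had the highest mean over the 12 libraries, with 417 ± 23.1 CPM per kb in Control_water and 414 ± 24.0 in Control_captopril (SD, n = 3 each). With GN it stood at 379 ± 16.0 on water and 401 ± 8.94 on captopril. Slc7a13 stood beside it in only 2 groups, at 377 ± 19.6 CPM per kb in Control_water and 402 ± 8.85 in GN_captopril, but at 0.798 ± 0.0218 in Control_captopril and 1.19 ± 0.339 in GN_water. Slc6a18 came next by its mean over all libraries, at 147 to 212 CPM per kb as group means. Slc7a7, the basolateral exchanger of basic for neutral amino acids, had group means of 103 to 126 CPM per kb, and Slc1a1 had 85.3 to 106. The order of Slc7a7, Slc3a2 and Slc1a1 changed from group to group: Slc3a2 was the lowest of the 3, with no overlap, in Control_water and GN_captopril, and Slc1a1 in Control_captopril and GN_water. The median of the 45 tested members was 6.81 CPM per kb, and Slc7a11 was the lowest at 0.0396.

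**Figure D1:**
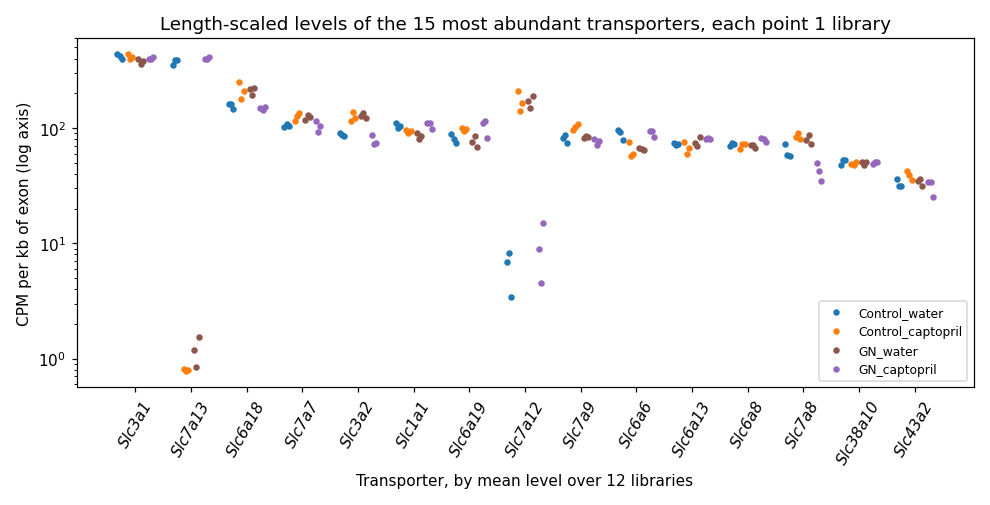
The y axis is the length-scaled level in CPM per kb of exon on a log axis, the x axis lists the 15 transporters with the highest mean over all 12 libraries, and each point is 1 library coloured by group. Slc7a13 splits into libraries near 400 and libraries near 1 CPM per kb, and Slc7a12 splits the opposite way, while Slc3a1 stays between 362 and 440 CPM per kb.

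A contrast of the Xist libraries (Control_captopril and GN_water) with the Y-linked RNA libraries (Control_water and GN_captopril), called the marker contrast here, called more members than any other comparison. It equals -1/2 of the interaction between disease and drink and has the same p, so a difference by marker and a response to captopril that differs with disease cannot be told apart. By edgeR's quasi-likelihood test with Benjamini-Hochberg adjustment over all genes, 18 members were higher in the Xist libraries and 12 were lower. The background was 27.1% of all tested genes higher and 23.6% lower. The median size of the log2 change was 0.451 over the members and 0.214 over all tested genes. It was slightly larger over the members in GN_captopril against GN_water, at 0.464. In 6 members all Xist libraries were above all others, and in 8 they were all below, against 9.5% and 10.9% of all tested genes.

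Slc7a13 had the largest change of any member. Its level was 759, 825 and 838 CPM in Control_water and 844, 855 and 881 CPM in GN_captopril, against 1.75, 1.66 and 1.72 CPM in Control_captopril and 2.56, 1.81 and 3.26 CPM in GN_water. The groups with Y-linked RNA were thus high and those with Xist nearly empty, with no overlap. The fitted level was 401-fold lower in the Xist libraries (log2 change -8.65 ± 0.09 (SE), adjusted p = 7.72e-16). The low groups still held 34 to 66 counts per library, so the level there was measured and not 0.

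Slc7a12, a small neutral amino acid exchanger whose heavy chain partner is not established, went the other way. It stood at 365, 245 and 284 CPM in Control_captopril and 297, 258 and 329.8 CPM in GN_water, against 11.96, 14.3 and 5.93 CPM in Control_water and 15.7, 7.90 and 25.9 CPM in GN_captopril. All 6 Xist libraries were above all 6 others, and the fitted level was 22.4-fold higher there (log2 change 4.49 ± 0.24 (SE), adjusted p = 6.28e-09). Added per kb, both genes came to 383 ± 18.8 CPM per kb in Control_water and 411 ± 13.2 in GN_captopril, but 172 ± 35.1 in Control_captopril and 170.5 ± 21.0 in GN_water (SD, n = 3 each). The rise of Slc7a12 was therefore smaller, per kb, than the fall of Slc7a13.

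**Figure D2:**
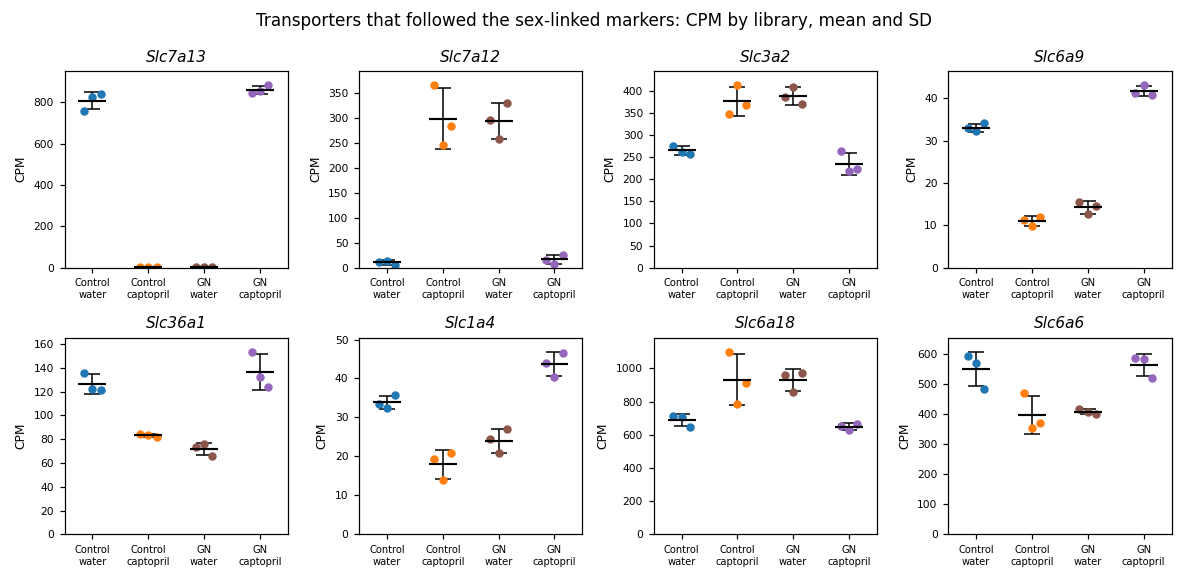
Each panel gives the level of 1 transporter in CPM on the y axis, from 0, for the 4 groups on the x axis. Points are libraries, horizontal lines are means and bars are SD (n = 3). Slc7a13, Slc6a9, Slc36a1, Slc1a4 and Slc6a6 were high in Control_water and GN_captopril, and Slc7a12, Slc3a2 and Slc6a18 were high in Control_captopril and GN_water.

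The heavy chains differed in whether they moved with their light chains. Slc3a1 was at 996, 950.3 and 892 CPM in Control_water, 999, 891 and 931 in Control_captopril, 895, 822 and 862 in GN_water and 904, 897 and 935 in GN_captopril. The Xist libraries and the others overlapped, although every GN_captopril library lay above every GN_water library (0.08 ± 0.06 on the log2 scale, adjusted p = 0.257). Its log2 change in the marker contrast was -0.05 ± 0.04 (SE, adjusted p = 0.368), with a 95% interval, by the normal approximation, from -0.13 to 0.03. Its light chains Slc7a9 and Slc7a13 summed to 458 ± 18.6 CPM per kb in Control_water and 478 ± 9.48 in GN_captopril but to 103 ± 6.63 in Control_captopril and 84.8 ± 2.11 in GN_water. The heavy chain was thus not called in this contrast, where the sum of these light chains fell. In GN_water against Control_water Slc3a1 had -0.14 ± 0.06 (adjusted p = 0.0646). DESeq2, its size factors in edgeR and the replicate block called Slc3a1 lower there. DESeq2 also called it lower in GN_water against Control_captopril, where edgeR did not (adjusted p = 0.113). Exons of Slc3a1 overlap Prepl on the opposite strand over 601 bases, so its counts may include reads of that gene. Slc7a9 itself was higher in the Xist libraries by 0.23 ± 0.05 on the log2 scale (adjusted p = 0.00111), but only Control_captopril stood apart, at 198, 211 and 225 CPM. GN_water was at 169, 178 and 174 CPM, against 171, 179 and 154 in Control_water and 165, 148 and 160 in GN_captopril. For Slc7a9, GN_water against Control_water did not pass (0.05 ± 0.07, adjusted p = 0.591).

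Slc3a2 was higher in the Xist libraries together with 5 of its 6 light chains, where 27.1% of all tested genes were higher. It was at 348, 412 and 368 CPM in Control_captopril and 384, 408 and 369 in GN_water, against 276, 262 and 257 in Control_water and 263, 218 and 224 in GN_captopril. The sets did not overlap (log2 change 0.61 ± 0.06 (SE), adjusted p = 1.14e-06). Slc7a8, a basolateral carrier of neutral amino acids, rose by 0.68 ± 0.09 (adjusted p = 2.82e-05), Slc7a6, an exchanger of basic amino acids, by 0.77 ± 0.12 (adjusted p = 0.000109) and Slc7a7 by 0.27 ± 0.05 (adjusted p = 0.00117). Slc7a5, which brings leucine and other large neutral amino acids into growing cells, rose by 0.53 ± 0.14 (adjusted p = 0.00777), and Slc7a11, the cystine and glutamate exchanger, by 1.405 ± 0.44 (adjusted p = 0.0164, and 0.0559 without the second Control_captopril library). For Slc7a11 and Slc7a5 only GN_water was high: Slc7a11 was lower in every Control_captopril than in every GN_captopril library, and Slc7a5 had means of 3.23 and 3.84 CPM in these groups. Slc7a10 had 0 to 22 counts per library and was not called (0.90 ± 0.80, adjusted p = 0.37). Summed per kb, the 6 light chains came to 213 ± 9.55 in Control_captopril and 208 ± 12.6 in GN_water, against 169 ± 8.01 in Control_water and 148 ± 15.9 in GN_captopril. All 12 Slc3a2 entries were not whole numbers in the deposited table, and 3.42% of the 50-base stretches of its transcripts occur in other genes, so part of its reads may be shared.

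**Figure D3:**
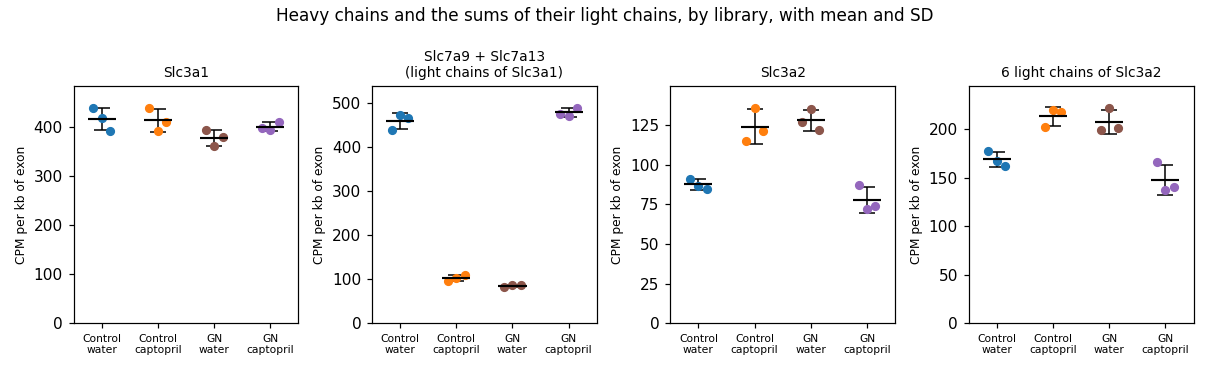
The y axis of each panel is CPM per kb of exon, from 0, and the x axis gives the 4 groups, with libraries as points, means as lines and SD as bars (n = 3). Slc3a1 stays between 362 and 440 in all libraries while the sum of its light chains is 437 or more in one pair of groups and at most 109 in the other, and Slc3a2 and its 6 light chains are both higher in Control_captopril and GN_water.

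Among the other carriers, Slc6a9, the glycine transporter GlyT1, had the clearest fall in the Xist libraries after Slc7a13. It was at 32.9, 32.2 and 34.1 CPM in Control_water and 41.4, 43.1 and 40.8 in GN_captopril, against 11.3, 9.85 and 11.9 in Control_captopril and 15.6, 12.7 and 14.7 in GN_water. No library of one set reached the other (log2 change -1.57 ± 0.06 (SE), adjusted p = 2.14e-10). Exons of Slc6a9 overlap Ccdc24 and Gm17114 on the opposite strand over 1940 bases, and no source used here says whether the counting used strand, so their reads may be mixed. Such overlap was present in 9 of the 59 members, among them Slc3a1 and Slc1a1 (1216 bases). Slc1a4 (ASCT1, alanine, serine and cysteine) fell by 0.89 ± 0.09 (adjusted p = 3.06e-06), and Slc36a1 (PAT1, proton-coupled glycine, alanine and proline carrier of lysosomes and apical membranes) by 0.77 ± 0.06 (adjusted p = 1.49e-07). Slc7a4, an Slc7 member of the cationic branch, fell by 0.66 ± 0.10 (adjusted p = 0.000117) and the taurine carrier Slc6a6 by 0.46 ± 0.07 (adjusted p = 0.000125). Slc6a15, a neutral amino acid carrier, fell by 0.48 ± 0.14 (adjusted p = 0.0129), and Slc1a1, Slc1a2, Slc38a6, Slc38a9 and Slc6a8 fell by 0.11 to 0.41. Of the 50-base stretches of Slc38a6 transcripts, 22.8% occur in other genes, so part of its reads may be shared. The call of Slc38a9 (adjusted p = 0.0472) was lost under DESeq2 (0.0543), without the filter on low counts (0.0612) and with the replicate block (0.0586). It was also lost without any 1 of 9 libraries (0.0510 to 0.107, all but the third Control_captopril, the second GN_water and the third GN_captopril library). That of Slc6a8 was lost without the second or the third Control_water, the first Control_captopril or the first GN_captopril library (0.0502 to 0.0600).

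Members that were higher in the Xist libraries outside the heteromeric carriers had smaller changes than Slc7a12. Slc6a18, which takes up glycine and other neutral amino acids in the late proximal tubule, was at 1098, 787 and 913 CPM in Control_captopril and 961, 856 and 974.96 in GN_water, against 715, 708 and 649 in Control_water and 651, 627 and 667 in GN_captopril. The sets did not overlap (0.48 ± 0.07 on the log2 scale, adjusted p = 6.99e-05). Its neighbour on chromosome 13, Slc6a19, did not pass (-0.08 ± 0.08, adjusted p = 0.442). The arginine and lysine carriers Slc7a1 and Slc7a2 rose by 0.49 ± 0.05 (adjusted p = 5.62e-06) and 0.56 ± 0.11 (adjusted p = 0.000645). Slc43a3, known as a purine and fatty acid carrier, rose by 0.57 ± 0.06 (adjusted p = 3.98e-06) and Slc38a1, a sodium-coupled glutamine carrier, by 0.75 ± 0.15 (adjusted p = 0.000817). Mean Slc38a1 was 8.22 CPM in GN_water, but its 4.45 CPM in Control_captopril was not above the 4.72 in GN_captopril. Control_water had 2.71 CPM. Slc38a3, Slc6a17, Slc1a5, Slc6a4 and Slc38a2 rose by 0.22 to 0.43. For Slc38a3 and Slc6a4 only Control_captopril was high, at means of 93.2 and 16.2 CPM. Their means in GN_water were 60.9 and 11.7 CPM, against 57.5 and 11.8 in Control_water and 55.0 and 11.5 in GN_captopril. The call of Slc1a5 was lost without any 1 of 7 libraries (adjusted p from 0.0553 to 0.111; all but the first and the third Control_water, the second Control_captopril, the third GN_water and the third GN_captopril library). That of Slc38a2 was lost without the first Control_captopril, the second GN_water or the third GN_water library (0.0502 to 0.0599) and without both libraries with adrenal cortex RNA (0.0691), and that of Slc6a4 without the first GN_water library (0.0664). Cell type markers also moved in this contrast: 6 of 8 distal nephron and 5 of 5 podocyte genes were higher, and of 12 proximal tubule genes 4 were higher and 6 lower. The 6 straight proximal tubule genes, from the segment of Slc7a13, summed to 3850 to 4279 CPM in Control_water and 4405 to 5269 in GN_captopril. The sums were 2467 to 3111 in Control_captopril and 2724 to 3236 in GN_water, with 2 genes higher and 3 lower. These genes did not move together. Mean Acsm3 was 6.41 CPM in Control_captopril and 6.40 in GN_water, against 1316 in Control_water and 1503 in GN_captopril. In the same order mean Aadat was 1676 and 1854 against 356 and 415, and Slc22a7 was 306 to 367 in all groups. The sum therefore does not measure the amount of this segment. The summed distal nephron markers were 6877 to 8263 CPM in Control_captopril and 6330 to 7603 in GN_water, against 4362 to 5356 in Control_water and 3638 to 4315 in GN_captopril, and their part in these results was not tested. In such bulk tissue, fewer cells of a type and less RNA per cell cannot be told apart.

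**Figure D4:**
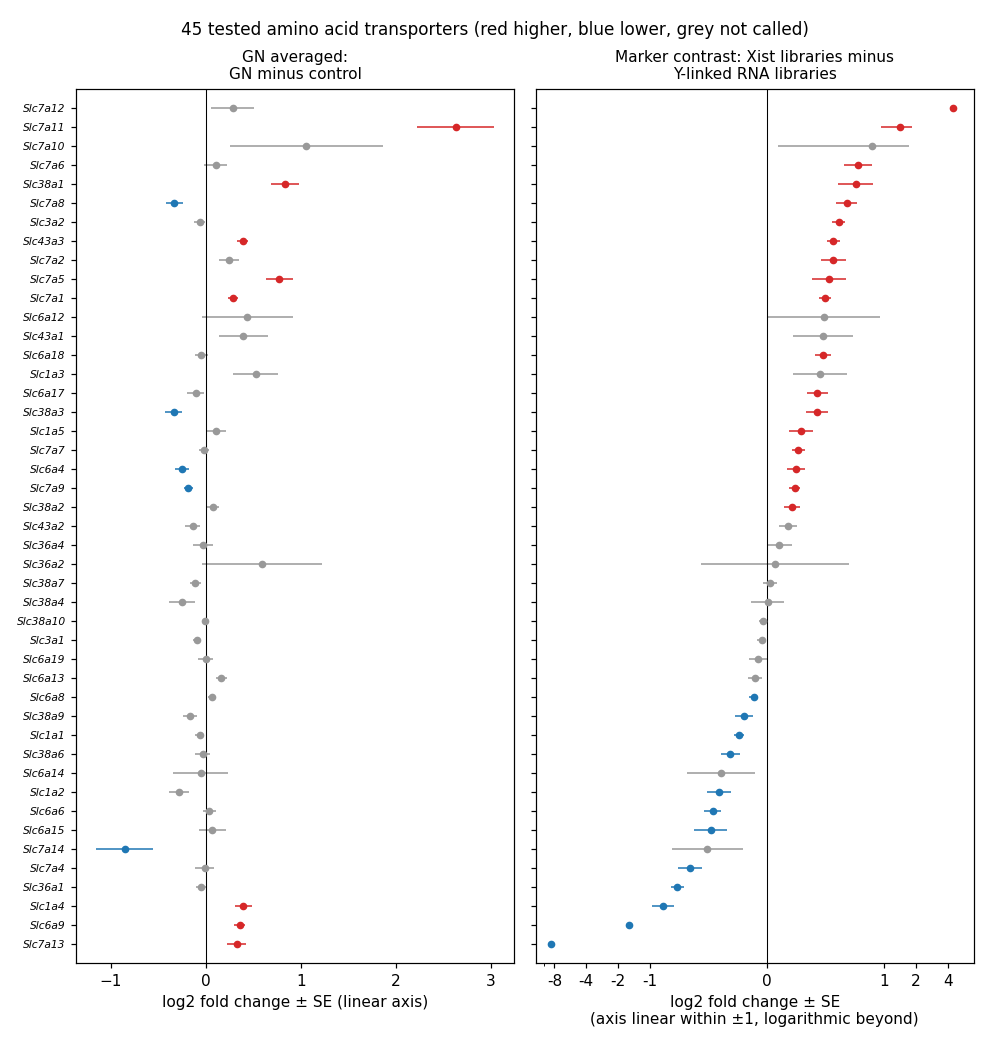
Each row is 1 of the 45 tested transporters, ordered by the marker contrast. The left x axis is the log2 fold change of GN against control averaged over both drinks, the right x axis the log2 fold change of Xist against Y-linked RNA libraries, linear within ±1 and logarithmic beyond, and bars are ±1 SE of the edgeR fit. Coloured points passed an adjusted p of 0.05: 8 higher and 5 lower on the left, 18 higher and 12 lower on the right, where Slc7a13 lies at -8.65 and Slc7a12 at 4.49.

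GN averaged over both drinks, which is balanced for the sex-linked markers, changed 13 of the 45 members: 8 rose and 5 fell. Over all tested genes 16.3% rose and 14.6% fell, near the members' shares of 17.8% and 11.1%, so the share called was close to that over all genes. The largest rise was that of Slc7a11, from a very low level. It had 1, 0 and 2 counts in Control_water and 3, 4 and 2 in Control_captopril, against 15, 29 and 24 in GN_water and 6, 6 and 4 in GN_captopril. As CPM, every GN library (0.287 to 1.19) was above every control (0 to 0.184), and Slc7a11 was the only member without overlap in this comparison, where 5.38% of all tested genes were higher without overlap and 1.57% lower. The fitted log2 change was 2.63 ± 0.40 (SE, adjusted p = 0.000316), which depends on the prior count at such low counts.

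Slc7a5 and Slc38a1, both linked to growth and activation of cells, rose next. Slc7a5 was at 5.82, 8.96 and 5.83 CPM in GN_water and 4.18, 3.67 and 3.66 in GN_captopril, against 2.65, 3.28 and 2.45 in Control_water and 3.05, 3.87 and 2.78 in Control_captopril. GN_water was above all controls, while GN_captopril overlapped Control_captopril (log2 change 0.77 ± 0.14 (SE), adjusted p = 0.00131). Slc38a1 was at 7.51, 9.25 and 7.90 CPM in GN_water and 3.78, 4.28 and 6.10 in GN_captopril, against 3.12, 3.09 and 1.93 in Control_water and 4.40, 5.16 and 3.79 in Control_captopril (0.83 ± 0.15, adjusted p = 0.000903). Slc43a3 rose by 0.39 ± 0.06 (adjusted p = 0.000294), Slc1a4 by 0.39 ± 0.09 (adjusted p = 0.00521), Slc6a9 by 0.36 ± 0.06 (adjusted p = 0.000592) and Slc7a1 by 0.29 ± 0.05 (adjusted p = 0.00135). Slc7a13 rose by 0.32 ± 0.10 (adjusted p = 0.0249), a fit that weighs the low and the high groups alike on the log2 scale, and this call was lost without any 1 of 5 single libraries (all 3 Control_captopril libraries and the first and the third GN_water library, adjusted p from 0.0502 to 0.119). Without both libraries that carry adrenal cortex RNA its adjusted p was 0.0745.

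Immune cell markers rose in the same libraries. The 10 macrophage genes all rose in GN averaged over drinks, with sums of 180 to 192 CPM in Control_water, 151 to 218 in Control_captopril, 1140 to 1607 in GN_water and 546 to 1083 in GN_captopril, and none was at 0 in any library. All 6 T and natural killer cell genes also rose, with sums of at most 8.85 CPM in controls and 20.3 to 40.2 in GN. Of 5 B and plasma cell genes 4 rose, with sums of 4.79 to 12.4 CPM in controls, 40.1 to 100.9 in GN_captopril and 186 to 621 in GN_water. The 3 tested neutrophil genes rose as well, with sums of 1.30 to 3.397 CPM in controls and 6.20 to 11.3 in GN. The part of these cells in the levels of Slc7a11, Slc7a5, Slc38a1 and Slc43a3 was not tested.

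The members that fell with GN were moderately changed. Slc7a8 was at 323, 357 and 297 CPM in GN_water and 202, 175 and 140.3 in GN_captopril, against 299, 236 and 232 in Control_water and 344, 368 and 330.4 in Control_captopril, which overlap (log2 change -0.33 ± 0.09 (SE), adjusted p = 0.0119). Slc38a3 (SNAT3), the basolateral glutamine carrier that feeds ammonia production, fell by 0.34 ± 0.09 (adjusted p = 0.0138). It was at 116, 73.9 and 89.7 CPM in Control_captopril and between 49.5 and 63.5 CPM in the other 9 libraries, so Control_captopril alone stood apart. Slc7a9 fell by 0.19 ± 0.05 (adjusted p = 0.00909) and the serotonin transporter Slc6a4, carried in Slc6 beside the amino acid transporters, by 0.25 ± 0.08 (adjusted p = 0.0219). Here too Control_captopril alone stood apart, with Slc7a9 at 198 to 225 CPM against 148 to 179 in the other 9 libraries and Slc6a4 at 15.2 to 17.3 CPM against 10.6 to 13.5. GN_captopril against Control_water called neither (adjusted p = 0.414 and 0.862). Slc7a14, a lysosomal protein of the cationic branch at 0.148 to 1.70 CPM, fell by 0.85 ± 0.30 (adjusted p = 0.0454). The call of Slc6a4 was lost without the second Control_water (adjusted p = 0.0513) or the second GN_captopril library (adjusted p = 0.0505). That of Slc7a14 was lost without any 1 of 7 libraries (2 of Control_water, 2 of Control_captopril, 1 of GN_water and 2 of GN_captopril, adjusted p from 0.0582 to 0.0943), and without both libraries with adrenal cortex RNA (adjusted p = 0.158). In the same contrast 9 of 12 proximal tubule markers fell (median log2 change -0.23) and none rose, a shift whose part in Slc7a8 and Slc7a9 was not tested.

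**Figure D5:**
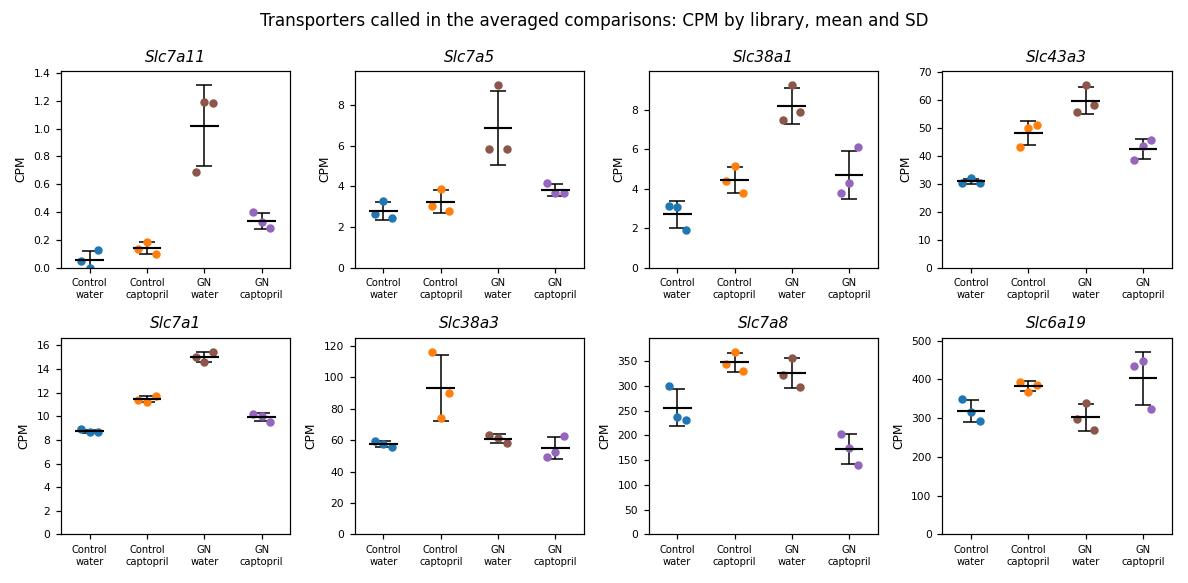
Panels give CPM from 0 on the y axis for the 4 groups on the x axis, with libraries as points, means as lines and SD as bars (n = 3). Slc7a11, Slc7a5, Slc38a1, Slc43a3 and Slc7a1 are highest in GN_water, Slc38a3 is highest in Control_captopril, Slc7a8 is lowest in GN_captopril, and Slc6a19 is higher in the captopril groups.

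GN was also compared within libraries of like markers, where disease and drink labels differ together. GN_water against Control_captopril, both with Xist, had 8 members higher and 5 lower (background 16.9% and 13.2%). GN_captopril against Control_water, both with Y-linked RNA, had 4 higher and 1 lower (background 7.05% and 5.02%). These 2 comparisons share no library, and 4 members rose in both, as did 5.05% of all tested genes: Slc38a1 by 0.88 ± 0.19 and 0.78 ± 0.22 on the log2 scale, Slc43a3 by 0.32 ± 0.08 and 0.46 ± 0.09, Slc6a9 by 0.37 ± 0.09 and 0.34 ± 0.08, and Slc7a11 by 2.80 ± 0.44 and 2.46 ± 0.68. Their adjusted p-values ran from 0.000379 to 0.0102 in the first and from 0.00477 to 0.0378 in the second. The sets of 3 libraries did not overlap for any of these 4, which is no separate evidence, because they were picked by passing both tests. Members called in neither comparison, such as Slc38a7 and Slc6a13, also did not overlap in the second. The 5 calls in the libraries with Y-linked RNA became 3 without the first Control_water library and 2 without the second Control_water or the second GN_captopril library. There the call of Slc43a3 was kept in every alternative run. That of Slc7a11 was lost under DESeq2 (adjusted p = 0.0765) and without any 1 of 5 libraries (all but the third Control_water, 0.0632 to 0.101), that of Slc38a1 without any 1 of 5 (all but the first GN_captopril, 0.0509 to 0.147), and both without the libraries with adrenal cortex RNA. That of Slc6a9 was lost without the second Control_water or the second GN_captopril library (0.0592 and 0.0532). In the Xist libraries the call of Slc43a3 was lost without the first Control_captopril or the second GN_water library (0.0544 and 0.103), and that of Slc6a9 without the first GN_water library (0.0700). Signs were alike in 28 of 45 members. Slc7a5 rose by 1.09 ± 0.19 in the Xist libraries (adjusted p = 0.000924) and had 0.46 ± 0.21 in the Y-linked RNA libraries (adjusted p = 0.185). Slc7a13 rose by 0.55 ± 0.18 in the first (adjusted p = 0.0328) and had 0.09 ± 0.08 in the second (adjusted p = 0.512). The first of these was lost without any 1 of 5 libraries (all but the second GN_water, adjusted p from 0.0712 to 0.278). Slc7a8 fell by 0.57 ± 0.13 in the second (adjusted p = 0.0116) and had -0.09 ± 0.12 in the first (adjusted p = 0.605). The test of the difference between both changes is the same as that of captopril averaged over disease, and it passed for none of Slc7a5, Slc7a13 and Slc7a8 (adjusted p = 0.204, 0.175 and 0.12).

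The promoters of Slc7a11 and Slc1a4, both of which rose with GN, hold the C/EBP-ATF response element that the stress factor Atf4 is known to bind, and are shown for that reason. The letters searched were TGATGNAA on both strands, in RefSeq promoters reaching from 250 bases before to 50 after the start site. They occurred in 3.97% of 32851 promoters and in 4 of the 62 promoters of the 41 members matched, those of Slc7a11, Slc1a4 and Slc7a7. Slc7a7 did not pass with GN (-0.02 ± 0.05, adjusted p = 0.841). The stretches run 5′ to 3′ along the gene's strand from 150 bases before to 10 after the start site, with matches in capitals. That of Slc7a11 is chr3:50443604-50443763 and that of Slc1a4 is chr11:20332704-20332863, both on the minus strand of GRCm38.p6.
Slc7a11: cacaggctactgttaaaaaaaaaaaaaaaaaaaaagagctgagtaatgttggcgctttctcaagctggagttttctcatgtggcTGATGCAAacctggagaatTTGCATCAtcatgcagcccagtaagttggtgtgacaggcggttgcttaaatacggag
Slc1a4: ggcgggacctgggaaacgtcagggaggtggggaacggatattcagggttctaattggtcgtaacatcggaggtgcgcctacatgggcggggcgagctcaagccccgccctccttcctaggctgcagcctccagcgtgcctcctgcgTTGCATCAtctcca
Slc7a11 has 2 matches, at -66 on the gene's strand and at -47 on the other, and Slc1a4 has 1, at -4 on the other strand. It was 1 of 5 motifs searched on both strands. The antioxidant response element core (TGACNNNGC) was in 12.4% of all promoters and 10 of the 62 member promoters, the STAT5 site (TTCNNNGAA) in 8.30% and 4, the androgen receptor half-site (AGAACA) in 18.97% and 12, and the HNF1 half-site (GTTAAT) in 7.10% and 5. The pair of promoters was chosen for display with the results known, and a match is a description of the letters only.

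Captopril averaged over control and GN called 1 member, Slc6a19, as higher and none as lower, where 3.17% of all tested genes were higher and 3.34% lower. At an unadjusted p under 0.05, 4 members were higher and 4 lower, and the share of all tested genes at that threshold was not counted. DESeq2 called 2 higher (Slc6a19 and Slc38a3) and 0 lower. Slc6a19 (B0AT1), the main apical carrier of neutral amino acids, whose loss causes Hartnup disorder, was at 393, 368 and 386 CPM in Control_captopril and 435, 448 and 324 in GN_captopril, against 349.6, 315 and 292 in Control_water and 297, 338 and 269 in GN_water. The third GN_captopril library overlapped the water groups, and the others lay above them. The log2 change was 0.34 ± 0.08 (SE, adjusted p = 0.0266). The call was lost when any 1 of 6 libraries was left out (the second and the third Control_water, the first and the third Control_captopril, and the first and the second GN_captopril library, adjusted p from 0.0544 to 0.0682). Of the proximal tubule markers, 3 of 12 were higher in this contrast, and their part was not tested.

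Compared as labelled, each of the 4 contrasts that change 1 label also crossed the sex-linked markers. GN_water against Control_water had 16 members higher and 11 lower (background 27.4% and 23.9%), with Slc7a12 at 4.77 ± 0.34 and Slc7a13 at -8.33 ± 0.13 on the log2 scale. Control_captopril against Control_water, without disease, had 14 higher and 7 lower (background 15.4% and 17.0%), with Slc7a12 at 4.78 ± 0.35 and Slc7a13 at -8.88 ± 0.13. GN_captopril against GN_water had 10 higher and 14 lower (background 19.6% and 25.5%), and GN_captopril against Control_captopril had 10 higher and 12 lower (background 20.5% and 19.3%). In these last 2, Slc7a13 was at 8.42 ± 0.13 and 8.97 ± 0.13 and Slc7a12 at -4.19 ± 0.33 and -4.20 ± 0.33. The sign of both genes therefore followed the Xist and Y-linked RNA of the libraries set against each other, and the 4 comparisons share groups.

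Several abundant carriers did not pass in GN averaged, captopril averaged or the marker contrast. These were Slc3a1, Slc38a10, Slc43a2 and Slc6a13, of which Slc6a13 missed narrowly in GN averaged (0.16 ± 0.06, adjusted p = 0.0507). The betaine carrier Slc6a12 had 0.44 ± 0.48 (adjusted p = 0.531), but 1.22 (adjusted p = 0.0379) without the first Control_captopril library, whose 3.32 CPM stood against 0.645 and 0.303 in its group. Slc36a2, the high-affinity proline and glycine carrier, had 0 to 68 counts and shared 2.75% of its 50-base stretches with Slc36a1. In all, 14 of the 45 were called neither in GN averaged nor in the marker contrast, 12 were called in both, 18 in the marker contrast alone and 1 in GN averaged alone (Slc7a14). The 14 members not tested had at most 14 counts in any library. They included Slc1a6, Slc1a7, Slc36a3, Slc38a5, Slc38a8, Slc38a11, Slc6a2, Slc6a3, Slc6a5, Slc6a7, Slc7a3 and Slc7a15, among them neuronal glutamate, noradrenaline, dopamine, glycine and proline carriers. On chromosome X lie 4 members, Slc6a8, Slc6a14, Slc7a3 and Slc38a5.

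Genes that work with these carriers or use what they bring in were counted from lists, to be read against the 16.3% of all tested genes that rose and 14.6% that fell with GN averaged, and 27.1% higher and 23.6% lower in the marker contrast. Of 12 tested partners and neighbours, 5 fell with GN averaged and the other 7 did not pass. Tmem27 (collectrin), the escort of Slc6a19 and Slc6a18 in kidney, named after its values were seen, had -0.01 ± 0.04 in GN averaged and fell by 0.20 ± 0.04 in the Xist libraries (adjusted p = 0.000945). Of 15 genes in the Atf4 list (Atf4 and its targets) 5 rose with GN, including Ddit4 (0.64 ± 0.09) and the serine synthesis enzyme Phgdh (0.57 ± 0.10). In this list 3 fell, including Sesn2. In the marker contrast 8 of the 15 were higher and 3 lower. Of 8 genes in the Nrf2 list 3 fell with GN (the targets Gclm and Txnrd1, and Nfe2l2, the gene of Nrf2 itself). The other 5 did not pass, while Slc7a11, also known as a target of Nrf2, rose.

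Enzymes of amino acid use moved in both directions, against the same shares over all tested genes (16.3% and 14.6% with GN). Of 8 tested glutamine and glutamate genes 6 fell with GN and 2 did not pass. Those that fell included Pck1 (-0.89 ± 0.13), Gpt2 (-0.42 ± 0.06) and the glutamine synthetase gene Glul (-0.41 ± 0.09), beside the fall of the glutamine carrier Slc38a3. Pck1 and Glul, like Slc38a3, were highest in Control_captopril, at means of 3794 and 1319 CPM. The means in Control_water, GN_water and GN_captopril were 1357, 959 and 1561 CPM for Pck1 and 861, 878 and 734 for Glul. Gpt2 had lower means in both GN groups (69.7 and 65.7 CPM) than in both control groups (83.2 and 98.5). Of 8 tested tryptophan, glycine and taurine genes 5 fell and 3 did not pass. Those that fell included Kynu (-0.71 ± 0.11), Shmt1 (-0.30 ± 0.05) and Kmo (-0.27 ± 0.04). Of 12 arginine and ornithine genes 3 rose and 2 fell, including Ass1 (-0.20 ± 0.05). Those that rose included the nitric oxide synthase Nos2 (1.37 ± 0.18) and the polyamine enzyme Odc1 (0.32 ± 0.07). Mean Odc1 was 1082 CPM in Control_water, 567 in Control_captopril, 526 in GN_water and 1818 in GN_captopril. Its mean was thus above both control means in GN_captopril only and was lowest in GN_water. The arginine carrier Slc7a1, which also rose with GN, was instead highest in GN_water. Of 5 tested leucine sensing genes 1 fell, Rragd (-0.38 ± 0.05). In the marker contrast the arginine list had 4 higher and 4 lower members, with Arg2, which splits arginine, at 3.12 ± 0.12, Oat at 1.41 ± 0.07 and Odc1 at -1.36 ± 0.08. Csad, which makes taurine, fell by 0.93 ± 0.05 there, beside the fall of the taurine carrier Slc6a6.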

How the data were processed

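Stranded mRNA libraries of kidney cortex were sequenced from 4 groups of 3. The deposited table holds estimated counts per gene symbol, unnormalized and not always whole, which the authors made with Bowtie2 and Partek on mm10, per the submitters' processing notes. Tool versions and the strand setting: not given in the sources used here. A deposited RPKM table was not used. Groups came from the sample labels.

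Estimated counts were rounded and filtered with filterByExpr (minimum count 10, minimum total 15), which left 14618 genes. Libraries were normalised by TMM, and the model was edgeR 4.0.16 (R 4.3.3, quasi-likelihood, 1 mean per group over 12 libraries, 8 residual degrees of freedom). Adjusted p is Benjamini-Hochberg over all 14618 genes, with a threshold of 0.05, and each SE is the log2 change over the root of its F. CPM uses TMM-scaled totals, and CPM per kb divides it by merged exon length (GENCODE, GRCm38). The script was tested on simulated counts. Totals of 14.2 to 22.8 M counts set the precision.

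Alternatives were DESeq2 1.42.0, its size factors in edgeR, no filter, a replicate block, each library left out, and both libraries with adrenal RNA left out. Members named are up to 10 per direction by adjusted p, with at least 1 CPM, for GN averaged and the marker contrast, up to 6 for captopril, and a list of 26 kidney or inflammation transporters. Pathway genes are up to 3 per list. Members outside this were named after their values were seen: Slc6a17, Slc7a10, Slc38a7, Slc38a9 and Slc38a10. The members and lists were chosen with earlier results of these data known. Some genes of the lists are not reported here.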

Additional observations from a re-analysis of the deposited data

Results flagged for a closer look

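The effect of GN differed between captopril and water in 30 of the 45 tested members, by edgeR's test of the interaction. The same test called 27.1% of all tested genes as more negative under captopril and 23.6% as more positive. Each value is the log2 change with GN under captopril minus that under water. By construction it is -2 times the contrast of Xist with Y-linked RNA libraries and has the same adjusted p, so a difference by sex-linked marker and one by drink cannot be told apart. The change was more positive under captopril in 12 members, led by Slc7a13 17.30, Slc6a9 3.13, Slc1a4 1.77, Slc36a1 1.53 and Slc7a4 1.32. Next came Slc6a15 0.96, Slc6a6 0.93, Slc1a2 0.82, Slc38a6 0.63 and Slc1a1 0.48. They were followed by Slc38a9 0.39 and Slc6a8 0.23. The change was more negative under captopril in 18 members, led by Slc7a12 -8.97, Slc7a11 -2.81, Slc7a6 -1.55, Slc38a1 -1.51 and Slc7a8 -1.36. Next came Slc3a2 -1.23, Slc43a3 -1.13, Slc7a2 -1.13, Slc7a5 -1.06 and Slc7a1 -0.99. They were followed by Slc6a18 -0.96, Slc6a17 -0.86, Slc38a3 -0.85, Slc1a5 -0.58 and Slc7a7 -0.53. Smaller differences were those of Slc6a4 -0.49, Slc7a9 -0.47 and Slc38a2 -0.43. The adjusted p-values ran from 7.72e-16 for Slc7a13 to 0.0472 for Slc38a9. Groups of 3 libraries were not screened for single libraries far from the others.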

How the results depend on the processing

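Captopril averaged over disease called 1 member, but 2 by DESeq2 and 3 with a replicate block (Slc36a1 and Slc6a19 higher, Slc7a8 lower), and 0 to 2 without 1 library. GN_captopril against Control_water called 5 members, and 2 to 7 without 1 library. The other counts stayed within 1.5 times of their value: without 1 library, GN averaged over drinks gave 11 to 15 against 13, and the contrast of Xist with Y-linked RNA libraries 27 to 32 against 30. Of the values of named or called members under the alternatives, 1142 kept their side of the threshold, 86 fell short of it and 7 came to pass it. Changes of sign with a call in either run numbered 0, and changes of sign without a call were not counted apart. Those that came to pass include Slc3a1 without the first GN_water library (-0.13, adjusted p = 0.0465), Slc7a2 without the second GN_captopril library (0.31, adjusted p = 0.0445), and Slc43a2 (-0.14) and Slc6a13 (0.16) with the block. The cause was not tested. Whether the title number pairs pair the samples was not settled. Over 18 pairs of libraries with the same number, deviations from group means correlated at -0.235 to 0.236, and 4 were over 0.1. Between libraries of different number they correlated at -0.280 to 0.297, so the same-number pairs did not stand out. With 3 libraries per group this check cannot exclude a pairing. With the replicate block GN averaged over drinks called 16 members, including all 13. Depth limits Slc7a11 (96 counts in 12 libraries), Slc7a10 (88 counts) and the 14 members not tested.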
